A study of Homo sapiens with 9 samples.

Results

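The genes of epithelial-mesenchymal transition (EMT) were examined in RNA sequencing of HCT116 cells, a human colorectal carcinoma line. The members were the rows of the deposited gene table with the symbols CDH1, EPCAM, ESRP1, CDH2, VIM, SNAI1, SNAI2, ZEB1, ZEB2 and TWIST1, which are 10 of its 33861 genes. The 9 libraries formed 3 groups with 3 libraries each. NC cells were the control. Activin cells received activin A at 100 ng/mL for 5 days, and Activin+HGF cells received the same activin treatment followed by hepatocyte growth factor (HGF) at 20 ng/mL for 5 days. The culture time of the control cells was not given in the sources used here, and no group received HGF alone. HGF therefore cannot be told apart from the additional days after activin. The groups are cultures of 1 cell line, and nothing in the labels says that libraries of a group came from separate cultures, so the p-values measure the spread between these libraries, which may be technical.

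EMT is a change of cell state in which cells that are joined into sheets loosen their contacts and become motile. Transcription factors of the SNAI, ZEB and TWIST families bind E-box motifs and are known for repressing epithelial genes such as CDH1, while epithelial cells keep ESRP1, a splicing regulator, and EPCAM, an adhesion molecule of gut epithelium. Activin signals through SMAD proteins, as TGF-beta does, and HGF, also called scatter factor, signals through the receptor MET.

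Normalized counts, written CPM, are counts relative to a library size scaled by the TMM method, and were used to compare libraries. FPKM, which is per length and per library total, was used to compare genes. Fold changes are from edgeR's quasi-likelihood test on all 9 libraries, and a gene was called higher or lower at a Benjamini-Hochberg adjusted p under 0.05 over the 20988 genes tested. The 3 comparisons share libraries and are not independent of each other. The libraries held 57453977 to 77016167 counts on genes. The TMM factors were 1.029 to 1.066 in NC, 0.988 to 1.166 in Activin and 0.783 to 0.926 in Activin+HGF libraries, with Activin replicate 2 and Activin+HGF replicate 1 apart from the others of their groups. Without this scaling, the median log2 fold change of all tested genes was 0.10 in Activin against NC, -0.38 in Activin+HGF against Activin and -0.30 in Activin+HGF against NC, instead of 0.02, -0.04 and -0.03. The share of called genes that were higher then changed from 53.2% to 63.5%, from 57.6% to 22.3% and from 52.3% to 36.3% in the same order.

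Of the 10 members, 9 passed the filter on low counts and ZEB2 did not. In Activin against NC, CDH1, ESRP1 and SNAI2 were called higher and no member lower, which is 3 and 0 of 9. Among all tested genes, 9.58% were called higher and 8.41% lower in this comparison. When Activin+HGF was compared with Activin, EPCAM was called higher and ESRP1 lower, 1 of 9 each, against 7.41% and 5.45% of all tested genes, so that these counts were close to the background. Against NC, Activin+HGF cells had more calls. EPCAM, ESRP1, SNAI1, SNAI2 and TWIST1 were called higher and VIM lower, 5 and 1 of 9, against 16.4% and 15% of all tested genes. The median log2 fold change of the 9 members was 0.82, -0.05 and 0.70 in the 3 comparisons. With library totals in place of the TMM scaling, the same numbers of members were called in the first and second comparisons, and 4 higher and 1 lower in the last. Both epithelial genes and EMT transcription factors were therefore among the genes that rose. The mesenchymal gene VIM was the one that fell in Activin+HGF against NC, and 1 lower call of 9 was near the background of 15%.

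**Figure D1:**
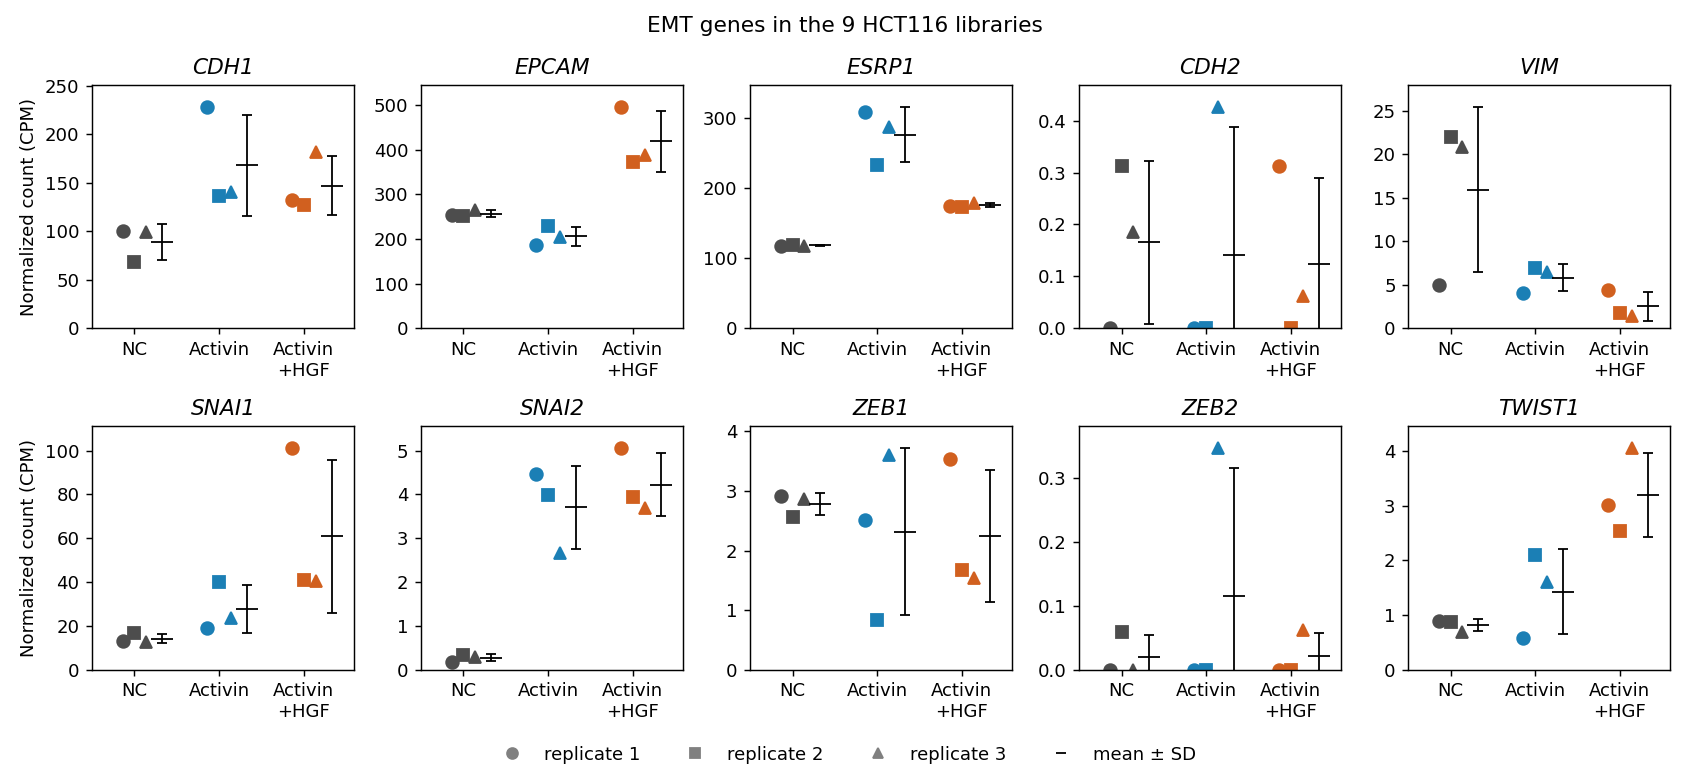
Normalized count (CPM, linear axis from 0) of each of the 10 EMT genes in the 9 libraries, grouped as NC, Activin and Activin+HGF; symbols mark replicates 1, 2 and 3 and the bars give the mean and SD (n = 3), cut at 0. SNAI2 was at 0.18 to 0.342 CPM in NC and at 2.65 CPM or more in every treated library, while CDH2 and ZEB2 stayed under 0.5 CPM throughout.

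The epithelial genes had the highest levels of the 10. By mean FPKM over the 9 libraries, EPCAM was at 99.8 (rank 300 of 33861 genes), ESRP1 at 34.2 (rank 941) and CDH1 at 19.1 (rank 1732). SNAI1 followed at 15.9 FPKM (rank 2135), and VIM, at 1.37 FPKM, ranked 11087. TWIST1, SNAI2 and ZEB1 had means of 0.729, 0.69 and 0.244 FPKM, and CDH2 and ZEB2 had 0.0144 and 0.00111 FPKM. Within a library, neighbours in this order changed places. CDH1 and SNAI1 differed by less than their spread in Activin+HGF cells, at 17.7 ± 4.42 and 25.1 ± 11.7 FPKM (SD, n = 3), and TWIST1 and SNAI2 likewise, at 1.17 ± 0.32 and 0.927 ± 0.0751 FPKM. The 8 colorectal epithelial markers summed to 441 to 732 FPKM in the 9 libraries, and 4 or 5 of them were over 1 FPKM in each group. The general keratins KRT8, KRT18 and KRT19 carried this sum. Of the markers of gut cells, the factor CDX2 was at 1.57 to 5.41 FPKM, while VIL1, CDX1 and LGALS4 were at most 0.03, 0.14 and 0.28 FPKM. KRT20, a keratin of differentiated gut epithelium, was called lower in both treated groups against NC (log2 fold changes -1.63 and -1.34). The 6 endothelial markers summed to at most 0.38 FPKM. The 6 leukocyte markers summed to 0.9 to 1.7 FPKM in NC, 5.26 to 9.37 in Activin and 6.19 to 7.9 in Activin+HGF libraries, and 2 of the 6 were called higher in both treated groups against NC. These were CD68, a lysosomal protein (log2 fold changes 2.83 and 3.35), and LYZ, or lysozyme (2.74, adjusted p = 0.0134, and 1.95, adjusted p = 0.0349). PTPRC was at most 0.02, CD3E 0.05 and CD14 0.4 FPKM in any library. The part of these markers in the results was not tested. In bulk RNA, fewer cells of a type and less RNA per cell cannot be told apart.

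CDH1, or E-cadherin (ENSG00000039068, chr16:68737292-68835537, plus strand), is the cadherin that joins epithelial cells at adherens junctions. It was at 100, 68 and 99.6 CPM in the NC libraries, 228, 136 and 140 CPM in the Activin libraries and 132, 127 and 182 CPM in the Activin+HGF libraries, in the order of replicates 1, 2 and 3. All treated libraries lay above all NC libraries, and the treated groups overlapped. CDH1 rose 1.88-fold in Activin against NC (log2 fold change 0.91, SE 0.254, adjusted p = 0.0316). This call was lost without NC replicate 1, 2 or 3 or without Activin replicate 1, with adjusted p = 0.0647, 0.109, 0.073 and 0.1. Its log2 fold change in Activin+HGF against NC was 0.72 (SE 0.253, adjusted p = 0.052), which did not pass. It was called in 4 of 10 alternative fits, with log2 fold changes of 0.40 to 0.74 and adjusted p of 0.0305 to 0.4, and in 2 of 9 fits without 1 library. Against Activin the log2 fold change was -0.19 with a 95% interval from -0.75 to 0.37.

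ESRP1 (ENSG00000104413, chromosome 8, plus strand) directs the splicing of epithelial isoforms. It was at 118, 119 and 118 CPM in NC, the closest agreement between replicates of any member, at 309, 233 and 288 CPM in Activin and at 175, 173 and 179 CPM in Activin+HGF libraries. The 3 groups did not overlap, with Activin highest and NC lowest. ESRP1 rose 2.33-fold with activin (log2 fold change 1.22, SE 0.153, adjusted p = 0.000586). It fell by 0.66 on the log2 scale in Activin+HGF against Activin (SE 0.151, adjusted p = 0.0217) and was 1.48-fold higher in Activin+HGF than in NC (log2 fold change 0.56, SE 0.151, adjusted p = 0.0174). The last value depended on the scaling. With library totals it was 0.30 (adjusted p = 0.224), and on FPKM the groups were at 21.8 ± 0.393 and 26.3 ± 2.47 (SD, n = 3). The fall after HGF missed the threshold without NC replicate 3, Activin replicate 1 or 3, or Activin+HGF replicate 2 or 3, at log2 fold changes of -0.72 to -0.64 with adjusted p up to 0.0663. The difference from NC missed it without NC replicate 1, 2 or 3 or Activin+HGF replicate 3, with adjusted p up to 0.0927.

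EPCAM (ENSG00000119888, chr2:47345158-47387601, plus strand) encodes the epithelial cell adhesion molecule. It was at 253, 251 and 265 CPM in NC, 186, 228 and 204 CPM in Activin and 495, 371 and 388 CPM in Activin+HGF libraries. Activin libraries were the lowest and Activin+HGF libraries the highest, with no overlap between the groups. The difference of Activin from NC did not pass the test (log2 fold change -0.32, 95% interval -0.68 to 0.04, adjusted p = 0.217). EPCAM rose 2.03-fold in Activin+HGF against Activin (log2 fold change 1.02, SE 0.164, adjusted p = 0.0067) and 1.63-fold in Activin+HGF against NC (log2 fold change 0.70, SE 0.163, adjusted p = 0.00865). Among the 3 epithelial genes, CDH1 and ESRP1 thus had their highest mean with activin alone and EPCAM its highest after HGF.

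**Figure D2:**
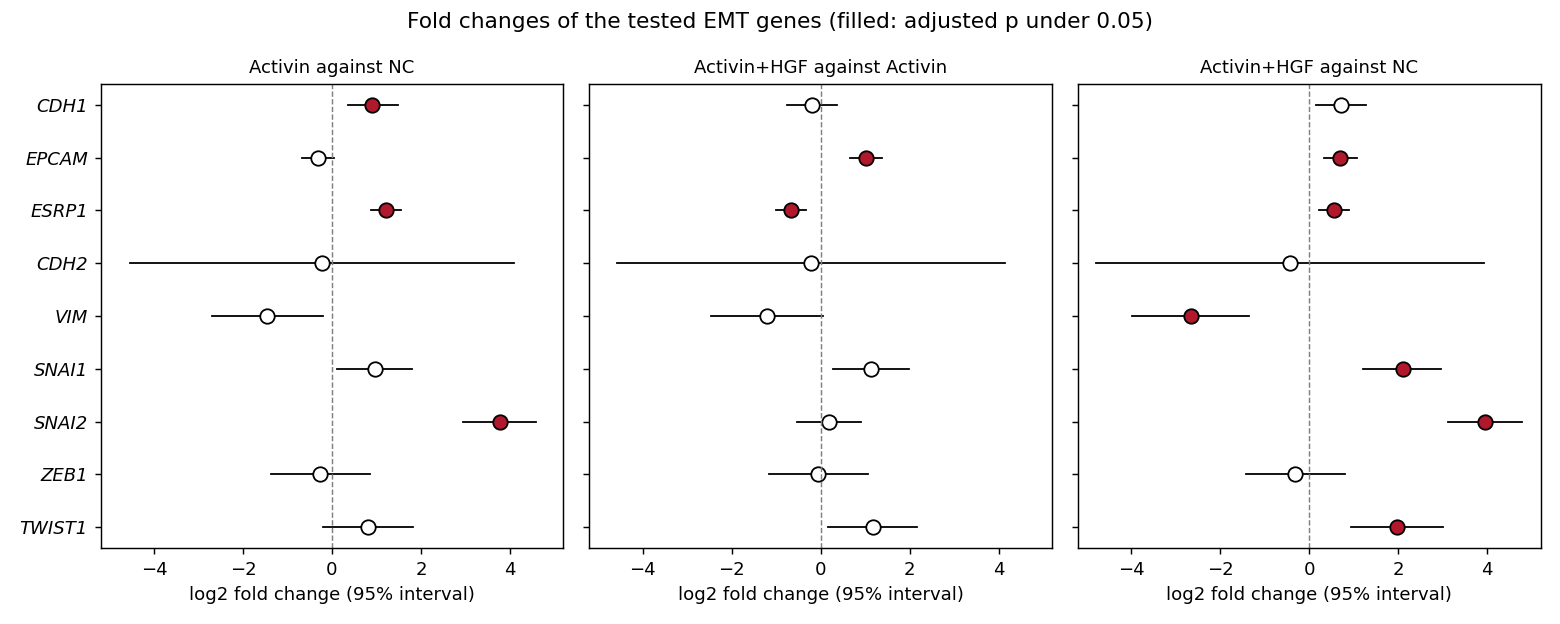
Log2 fold change of the 9 tested EMT genes in the 3 comparisons, with 95% intervals from edgeR's fit; filled points were called at an adjusted p under 0.05. SNAI2 lies at 3.77 and 3.96 in both comparisons with NC and at 0.19 between the treated groups, and VIM is the member called lower in Activin+HGF against NC (-2.66).

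VIM, or vimentin (ENSG00000026025, chr10:17228241-17237593, plus strand), is the intermediate filament of mesenchymal cells. It was at 4.98, 22 and 20.8 CPM in NC, 4.02, 6.96 and 6.45 CPM in Activin and 4.41, 1.76 and 1.4 CPM in Activin+HGF libraries. NC replicate 1 stood at the level of the treated libraries, so that NC overlapped with Activin but not with Activin+HGF. VIM fell 6.33-fold in Activin+HGF against NC (log2 fold change -2.66, SE 0.59, adjusted p = 0.00707). In the 9 fits without 1 library this log2 fold change ran from -3.33, when Activin+HGF replicate 1 was left out, to -2.38. In Activin against NC the log2 fold change was -1.45 (SE 0.563, adjusted p = 0.103), and it passed without NC replicate 1 (-1.84, adjusted p = 0.0332). Between the treated groups it was -1.21 (95% interval -2.46 to 0.05, adjusted p = 0.182). NC replicate 1 was also the lowest NC library for the fibroblast marker COL3A1, with 59 against 144 and 212 counts. PDGFRA (12 against 98 and 69 counts), THY1 (0 against 40 and 25) and COL1A2 (0 against 23 and 6) were likewise lowest there. PDGFRB, with 31 against 0 and 28 counts, and COL1A1, at 2.45 against 2.38 and 2.22 FPKM, were not. DCN had 0 counts in every NC library. The fibroblast marker list, with 7 of its 9 genes in the table, summed to 2.66 to 2.89 FPKM in NC, 4.6 to 6.05 in Activin and 2.88 to 3.65 in Activin+HGF libraries. Its main gene was COL1A1, at 2.22 to 5.8 FPKM, and the defining gene DCN was at most 0.01 FPKM in any library.

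CDH2, or N-cadherin (ENSG00000170558, chr18:27932879-28177946, minus strand), the cadherin of neural and mesenchymal cells, was at the limit of detection. It had 0, 21 and 15 counts in NC, 0, 0 and 32 counts in Activin and 17, 0 and 4 counts in Activin+HGF libraries. Every group held a library at 0, and a count of 0 allows up to 3 counts, or 0.0551 CPM in the library with the smallest scaled size. No comparison passed, and the 95% intervals reached from -4.54 to 4.1 in Activin against NC, so that no difference was detectable at this depth.

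The level of CDH1 relative to VIM was compared within each library as a ratio of FPKM values. It was 17.1, 2.62 and 4.08 in NC, 48.8, 16.8 and 18.5 in Activin and 25.8, 62.4 and 113 in Activin+HGF libraries. NC replicate 1 again lay among the Activin libraries, and each Activin+HGF library exceeded every NC library. The ratio of SNAI1 to SNAI2 was 142, 94.8 and 83.6 in NC, 8.28, 19.4 and 17.1 in Activin and 38.6, 20.1 and 21.2 in Activin+HGF libraries. The 3 groups did not overlap in this ratio, although Activin replicate 2 and Activin+HGF replicate 2 were close. Its NC values divide by SNAI2 at 0.05, 0.09 and 0.08 FPKM, from 11, 23 and 23 counts, and are imprecise. These ratios do not depend on the library scaling and were not tested.

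**Figure D3:**
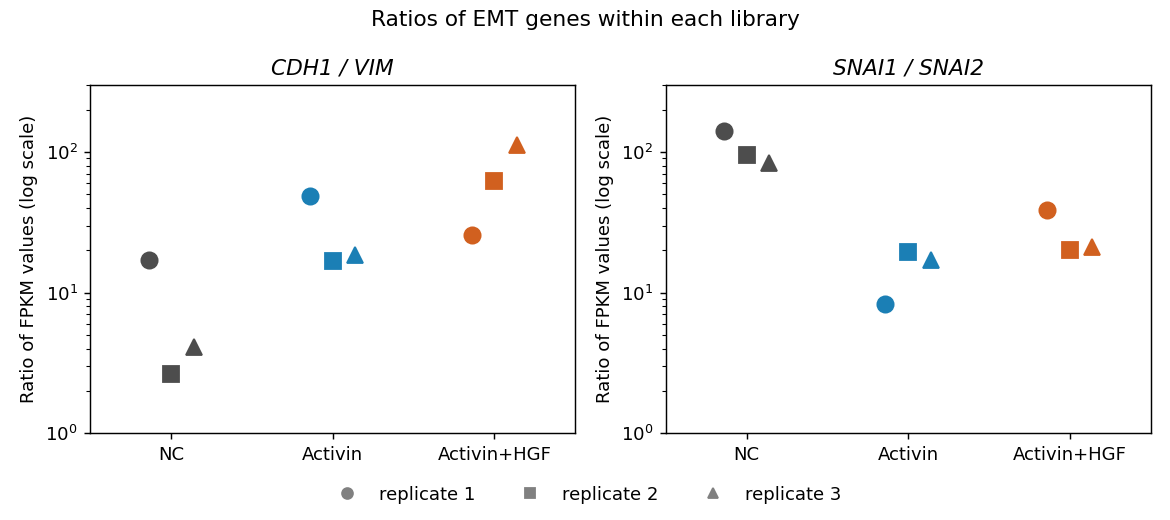
FPKM of CDH1 over VIM and of SNAI1 over SNAI2 in each library, on log axes, by group and replicate. CDH1 over VIM ran from 2.62 to 17.1 in NC and from 25.8 to 113 in Activin+HGF libraries, and SNAI1 over SNAI2 was at 83.6 or more in NC and at 38.6 or less in the treated libraries. The NC values of SNAI1 over SNAI2 rest on 11 to 23 counts of SNAI2 and are imprecise.

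SNAI1, or Snail (ENSG00000124216, chr20:49982980-49988886, plus strand), is a zinc finger repressor of CDH1 and the EMT transcription factor with the highest FPKM here. It was at 13.2, 16.6 and 12.7 CPM in NC, 19.2, 40.2 and 23.6 CPM in Activin and 101, 41 and 40.4 CPM in Activin+HGF libraries. The groups did not overlap, but Activin replicate 2 came within 1 CPM of the lowest Activin+HGF library, and Activin+HGF replicate 1 was far above the others of its group. SNAI1 rose 4.27-fold in Activin+HGF against NC (log2 fold change 2.10, SE 0.394, adjusted p = 0.00303). The log2 fold change was 0.96 in Activin against NC (SE 0.383, adjusted p = 0.111) and 1.13 in Activin+HGF against Activin (SE 0.383, adjusted p = 0.0774), and neither passed. The former passed without Activin+HGF replicate 1 (0.96, adjusted p = 0.032) and the latter without Activin replicate 2 (1.5, adjusted p = 0.0323). Of 10 other fits, 3 called the former (lowest adjusted p = 0.0455) and 1 the latter.

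SNAI2, or Slug (ENSG00000019549, chromosome 8, minus strand), is the second Snail-type repressor and showed the largest fold changes of the members. It had 11, 23 and 23 counts in NC, 329, 249 and 199 counts in Activin and 275, 271 and 236 counts in Activin+HGF libraries, or 0.18, 0.342 and 0.286, 4.46, 3.99 and 2.65, and 5.05, 3.94 and 3.68 CPM. NC libraries were all far below the treated libraries, which overlapped with each other. SNAI2 rose 13.6-fold in Activin against NC (log2 fold change 3.77, SE 0.373, adjusted p = 0.000175) and 15.5-fold in Activin+HGF against NC (log2 fold change 3.96, SE 0.376, adjusted p = 7.79e-05). Between the treated groups the log2 fold change was 0.19, with a 95% interval from -0.53 to 0.91 (adjusted p = 0.74). Even after this rise its level, at 1.07 ± 0.286 FPKM in Activin cells (SD, n = 3), was below that of SNAI1, at 15.1 ± 4.55 FPKM.

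TWIST1 (ENSG00000122691, chr7:19020991-19117118 in the table, minus strand), a basic helix-loop-helix factor, was at 0.882, 0.863 and 0.683 CPM in NC, 0.57, 2.1 and 1.61 CPM in Activin and 3.01, 2.54 and 4.05 CPM in Activin+HGF libraries. Activin replicate 1 was the lowest of all 9 libraries, so that NC and Activin overlapped, and the Activin+HGF libraries were above all others. TWIST1 rose 3.96-fold in Activin+HGF against NC (log2 fold change 1.98, SE 0.467, adjusted p = 0.00937). The log2 fold changes were 0.82 in Activin against NC (SE 0.457, adjusted p = 0.26) and 1.17 in Activin+HGF against Activin (SE 0.454, adjusted p = 0.113). These values rest on 42 to 260 counts per library.

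ZEB1 (ENSG00000148516, chr10:31318495-31529813, plus strand) and ZEB2 (ENSG00000169554, chr2:144364364-144520400, minus strand) are zinc finger homeobox repressors that form a mutually repressive loop with microRNAs of the miR-200 family. ZEB1 was at 2.91, 2.56 and 2.87 CPM in NC, 2.51, 0.832 and 3.61 CPM in Activin and 3.53, 1.67 and 1.54 CPM in Activin+HGF libraries. The spread within each treated group was larger than the differences between groups. Its log2 fold change was -0.26 in Activin against NC (95% interval -1.37 to 0.85) and -0.31 in Activin+HGF against NC (-1.42 to 0.81), with adjusted p = 0.784 and 0.683. The antisense gene ZEB1-AS1 overlaps the ZEB1 locus and had 90 to 432 counts per library, against 52 to 271 for ZEB1. Whether the counting used strand is not given in the sources used here, so ZEB1 counts are uncertain. ZEB2 had 0 counts in 6 of the 9 libraries, 4 in NC replicate 2 and Activin+HGF replicate 3, and 26 in Activin replicate 3. Of the 8 miR-200 and miR-205 loci, 7 were in the table, and the host gene MIR200CHG was the 1 tested, with log2 fold changes of -0.21, 0.08 and -0.12 in the 3 comparisons and no call. MIR200CHG had 38 to 116 counts per library. The other loci did not pass the filter on low counts, so the microRNAs themselves were not tested.

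E-boxes, the motif CANNTG that the SNAI, ZEB and TWIST factors bind, were searched on both strands in RefSeq promoter windows of build GRCh38.p14. Windows of 4 of the 10 members were searched, CDH2, VIM, ZEB1 and ZEB2. The other members were not searched, so the 4 is not a count of all members with a window. The 250 bases before the start are shown for VIM, the member that fell, and for the most upstream of the 7 ZEB1 windows, for which no comparison passed the test. Capitals mark E-boxes. The lines give chr10:17227991-17228240 and chr10:31318167-31318416, both on the plus strand and 5′ to 3′.
VIM: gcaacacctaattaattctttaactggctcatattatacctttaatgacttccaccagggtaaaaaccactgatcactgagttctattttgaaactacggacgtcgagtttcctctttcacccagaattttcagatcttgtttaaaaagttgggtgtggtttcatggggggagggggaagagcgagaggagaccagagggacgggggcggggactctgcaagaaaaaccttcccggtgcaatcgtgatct
ZEB1: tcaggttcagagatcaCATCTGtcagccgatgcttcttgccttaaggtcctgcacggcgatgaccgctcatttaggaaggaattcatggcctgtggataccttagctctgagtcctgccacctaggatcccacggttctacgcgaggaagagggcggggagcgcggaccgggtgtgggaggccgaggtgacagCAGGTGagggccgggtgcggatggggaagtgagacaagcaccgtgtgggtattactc

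The VIM window held no CANNTG, and 38.2% of the 35116 upstream windows of all genes held none. The ZEB1 window held 2, of which 1 was CAGGTG. This form or its reverse complement, CACCTG, both of them also CANNTG, occurred in 17.5% of all upstream windows. A match is a description of the letters in the window and not of binding.

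The other genes of epithelial and mesenchymal identity were counted in lists. Of 18 partners of cadherins in adherens junctions and desmosomes, 2 were higher and 2 lower in Activin against NC, 2 higher and none lower in Activin+HGF against Activin, and 4 higher and 1 lower in Activin+HGF against NC. Among all tested genes 9.58% were higher and 8.41% lower in the first, 7.41% and 5.45% in the second and 16.4% and 15% in the last comparison, so that apart from the single lower call against 15% these counts were close to the background. The median log2 fold changes were 0.14, 0.04 and 0.09, and with library totals 0.23, -0.31 and -0.17. The catenins that link cadherins to actin moved apart with activin, CTNNA1 higher by 0.65 and CTNNB1 lower (-0.62) on the log2 scale. PKP4, a relative of the plakophilins, was lower in both comparisons with NC (-0.76 and -0.94). NECTIN2 and NECTIN4, adhesion proteins of the same junctions, were higher in Activin+HGF against NC (1.47 and 1.25), and NECTIN2 also in Activin+HGF against Activin (0.87). The last call was kept in 2 of 9 fits without 1 library. CTNNB1 was kept in 5 of 9, and both lower calls of Activin against NC were lost without NC replicate 1 or 2.

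Of 17 regulators of the epithelial state, 6 were higher and none lower in Activin against NC (median log2 fold change 0.34), 6 and none in Activin+HGF against Activin (0.45), and 9 and 1 in Activin+HGF against NC (1.07). The shares of all tested genes called higher and lower were 9.58% and 8.41%, 7.41% and 5.45%, and 16.4% and 15%. KLF4, a zinc finger factor of differentiated gut epithelium, was at 24.7, 25.2 and 11.3 CPM in NC, 130, 159 and 124 CPM in Activin and 104, 77.9 and 150 CPM in Activin+HGF libraries. Treated libraries were all above NC and overlapped with each other. KLF4 rose with activin by a log2 fold change of 2.75 (SE 0.339, adjusted p = 0.000536). GRHL1 and OVOL1, factors that maintain epithelial genes, rose by 1.42 and 1.3 on the log2 scale in Activin against NC. Their relatives GRHL2 (-0.12), GRHL3 (-0.2) and OVOL2 (0.05) did not, and were not called in any comparison. In Activin+HGF against NC, GRHL2 was at -0.52 (adjusted p = 0.0965), GRHL3 at 0.25 and OVOL2 at -0.55. In Activin+HGF against NC, KLF4 (2.44) and PRSS8 (1.99), a membrane protease, were among the genes that rose. ESRP2, the paralog of ESRP1, was the gene called lower (-0.52, adjusted p = 0.0495), a call kept in 3 of 9 fits without 1 library. PRSS8 also rose in Activin+HGF against Activin (log2 fold change 1.22, SE 0.261, adjusted p = 0.0164), as did SPINT2, a protease inhibitor (0.77). The 6 calls of that comparison depended on the libraries and the scaling. They fell to 0 without Activin replicate 1 or 3, to 1 without Activin+HGF replicate 1 or 2 or any 1 NC library and to 3 without Activin+HGF replicate 3, and became 8 without Activin replicate 2, while library totals gave 1 higher and 1 lower. Against NC, 9 or 10 genes were higher in Activin+HGF in each of these left-out fits, and 9 with library totals.

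Of 25 mesenchymal structural genes, 22 were in the table and 17 were tested. With activin against NC 4 were higher and 3 lower, in Activin+HGF against Activin 2 and 1, and in Activin+HGF against NC 5 and 3, with medians of 0.11, 0.07 and 0.67. Against the shares over all genes given above, the 2 and 1 calls of the second comparison and the 3 lower calls of the last lay near the background. Library totals turned the split after HGF, to 2 higher and 4 lower against Activin (median -0.29) and 3 higher and 5 lower against NC (median 0.40). AXL, a receptor tyrosine kinase, rose with activin (log2 fold change 1.70, adjusted p = 0.000384) and was lower after HGF than with activin alone (-1.12, adjusted p = 0.00803). COL1A1, a fibrillar collagen, rose with activin (1.03). SPARC, a matrix protein, rose in Activin+HGF against Activin (2.31) and against NC (1.64), and FN1, or fibronectin, against NC (0.80). SPARC was low, with 57 to 96 counts in NC, 19 to 70 in Activin and 167 to 230 in Activin+HGF libraries. Its call against NC was kept in 6 of 9 fits without 1 library and in 7 of 10 other fits. The actin-binding genes CALD1 and TPM2 were lower with activin (-1.49 and -0.90), and CALD1 also in Activin+HGF against NC (-1.34). COL3A1, another fibrillar collagen, had 59, 144 and 212 counts in NC, 3, 0 and 0 in Activin and 14, 21 and 27 in Activin+HGF libraries. Its mean was at least 39.8-fold lower in Activin than in NC and at least 6.83-fold higher in Activin+HGF than in Activin. These bounds set the mean CPM of the other group against the floor of 3 counts in a library. PDGFRA, a receptor for platelet-derived growth factor, had 12, 98 and 69 counts in NC and 0 in every Activin+HGF library. By the same bound it was at least 15.2-fold lower than the NC mean of 0.837 CPM. That mean rests mostly on NC replicates 2 and 3, as replicate 1 was at 0.196 CPM, against a floor of 0.0551 CPM. The 5 higher calls in Activin+HGF against NC became 2 without NC replicate 1 or 3 and 3 without NC replicate 2.

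Of 20 other EMT transcription factors and their inhibitors, 18 were in the table and 15 were tested. With activin none was higher and 3 were lower, namely ID3 (-1.37), ID2 (-0.94) and SOX4 (-0.88), and SOX4 was kept in 4 of 9 fits without 1 library. ID proteins bind basic helix-loop-helix factors and keep them from DNA. After HGF, compared with activin alone, 5 were higher, RUNX2 (1.57), FOXC1 (1.22) and SNAI3 (1.21) as well as ID1 (1.11) and ID3 (0.92). SNAI3, a relative of SNAI1 and SNAI2, was at 3.5, 3.91 and 3.7 CPM in NC, 2.54, 6.52 and 4.43 CPM in Activin and 8.54, 12.4 and 10.3 CPM in Activin+HGF libraries. The Activin+HGF libraries were above all others. Compared with NC they had 4 genes higher, led by RUNX2 (1.5), SNAI3 (1.49) and TCF3 (0.80), an E-box binding factor. In Activin+HGF libraries no gene of this list was called lower against either other group. The medians of the 3 comparisons were -0.06, 0.48 and -0.06. Over all tested genes, 9.58% and 8.41%, 7.41% and 5.45%, and 16.4% and 15% were higher and lower in these comparisons. The 5 calls after HGF became 0 without Activin replicate 1 or 3 or Activin+HGF replicate 3, 1 without NC replicate 1 or 2 or Activin+HGF replicate 2 and 2 without NC replicate 3, and library totals gave 1. The 4 calls against NC became 1 without NC replicate 1 and 2 without NC replicate 2 or 3 or Activin+HGF replicate 2 or 3, and library totals gave 2 higher and 3 lower. The SNAI3 call against NC was kept in 9 of 9 left-out fits.

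Of 14 corepressors that SNAI and ZEB factors recruit, 1 was higher and 5 were lower in Activin against NC, 1 and none in Activin+HGF against Activin, and 1 and 5 in Activin+HGF against NC, with medians of -0.36, 0.08 and -0.46. Beside these counts, 9.58% and 8.41%, 7.41% and 5.45%, and 16.4% and 15% of all tested genes were higher and lower. The single higher calls were thus near or under the background. With library totals the medians were -0.28, -0.26 and -0.72. The histone methyltransferase genes EHMT2 and SUV39H1 were lower with activin (-1.28 and -1.09), as was SMARCA4, the ATPase of a chromatin remodelling complex (-0.93). EHMT2 was higher in Activin+HGF than in Activin (0.77, adjusted p = 0.0394), a call kept in 1 of 9 fits without 1 library and lost with library totals (0.45, adjusted p = 0.127). SUV39H1 had the largest fall in Activin+HGF against NC (log2 fold change -1.88, SE 0.242, adjusted p = 0.000398), followed by the demethylase gene KDM1A (-0.71) and by SIN3A and SMARCA4 (both -0.67). LOXL2, a lysyl oxidase that binds SNAI1, was the gene that rose, by 0.92 with activin (adjusted p = 0.0151) and by 1.57 in Activin+HGF against NC (adjusted p = 0.000619).

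**Figure D4:**
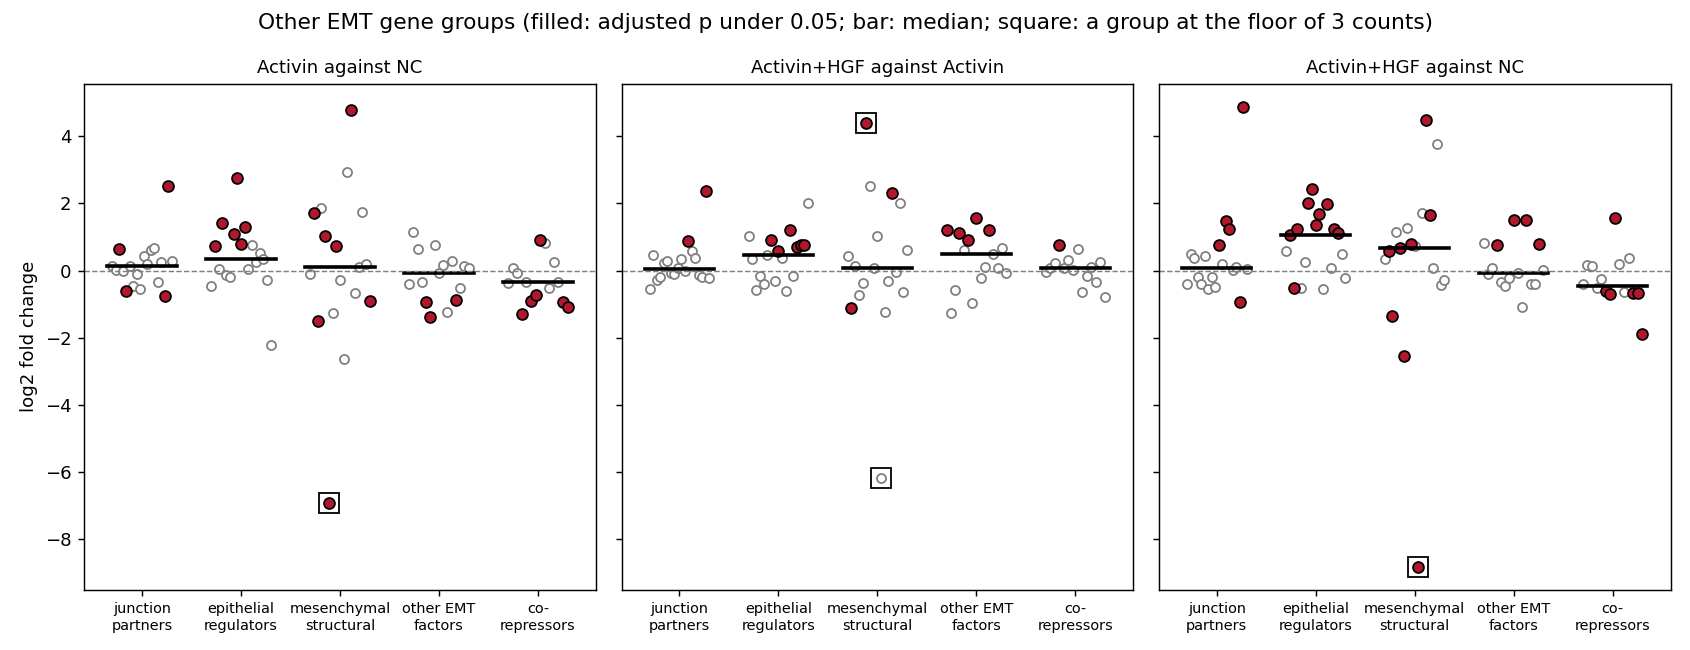
Log2 fold change of each tested gene in 5 lists of other EMT genes, in the 3 comparisons; filled points were called at an adjusted p under 0.05, the bar is the list's median, and squares mark genes with a group at or under 3 counts in every library, whose fitted values depend on the prior count. In Activin+HGF against NC the epithelial regulators had a median of 1.07 and the corepressors of -0.46.

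For each called member, the genes with the most similar log2 CPM over the 9 libraries were sought among 14481 genes. These correlations describe libraries that share 3 treatments, and were not tested. The closest were ERN1 and VGF for SNAI2 (Pearson r 0.994 and 0.993), SERGEF and RASGEF1A for EPCAM (0.996 and 0.992), CHP1 and PLEKHH3 for SNAI1 (0.995 and 0.991), and NAP1L5 and NBR2 for ESRP1 (0.983 and 0.979). For TWIST1 they were ATP5PO and DPM3 (both 0.967), for CDH1 TTC39B and IER2 (0.924 and 0.92) and for VIM ACSL6 and CAPNS1 (0.942 and 0.905). Between members, CDH1 and ESRP1 had r = 0.80 and CDH1 and VIM r = -0.69 over the 9 libraries, while CDH1 and EPCAM had r = -0.04.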

How the data were processed

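Ribosomal RNA-depleted libraries were sequenced. The authors deposited raw counts for each gene. They also deposited FPKM values, which they had normalized to gene length and library total. The submitters' processing notes name cutadapt 1.9, HISAT2 2.0.4 and StringTie 1.3.4d. The genome build is not given in the sources used here; coordinates are those of the table, and 87% of 32930 genes shared a start or end with GENCODE 29 (GRCh38). The columns of Activin+HGF libraries carry no treatment in their names and were assigned by the description label.

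Counts were tested with edgeR 4.0.16 in R 4.3.3 (filterByExpr, TMM, glmQLFit and glmQLFTest, group means, no block), with Benjamini-Hochberg adjustment over 20988 genes. SEs were taken from the F statistics. No replicate pair agreed within sampling noise (lowest chi-square per df 60.6). With 3 libraries against 3, an exact permutation test cannot go below p = 0.1 and was not used. Alternatives used other scalings, filters, the replicate block, fewer libraries, DESeq2 1.42.0 and limma 3.58.1 on log2(FPKM + 0.1 or 1). The test was tried on simulated data in which some genes were changed in Activin libraries. In Activin against NC it called 21.2% of genes changed by 1 on the log2 scale and 65.9% of those changed by 2. In Activin+HGF against Activin it called 15.2% and 63.7%. Changes of 1 on the log2 scale were thus mostly missed. Of its calls, 4.71% and 5.19% were of unchanged genes in these 2 comparisons. Members and lists were chosen with earlier results of these data known. Named genes were all members, up to 3 called genes with the largest changes per list, comparison and direction, and the 2 genes most similar to each called member with a mean of at least 1 CPM. ID1, ID3 after HGF, CD68, MIR200CHG, GRHL2, GRHL3 and OVOL2 were named after their values were seen. A few items that this rule selects are left out here.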

Additional observations from a re-analysis of the deposited data

How the results depend on the processing

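Besides 9 fits without 1 library each, 11 alternatives were run. The calls of EPCAM in both comparisons with Activin+HGF, of ESRP1 and SNAI2 in Activin against NC, and of VIM, SNAI1, SNAI2 and TWIST1 in Activin+HGF against NC were kept in all 9 left-out fits and in the 10 alternatives that refit the genes. On log2(FPKM + 1) the log2 fold changes of low genes were smaller, as the pseudocount makes them, for SNAI2 0.94 and 0.84 against NC, for VIM -1.37 and for TWIST1 0.66. The number of members called was 2 to 4 in Activin against NC and 5 to 7 in Activin+HGF against NC without 1 library. In Activin+HGF against Activin it was 1 to 3, and 1 with only the 6 libraries compared or when calls also needed a log2 fold change of 1 in size. CDH1 in Activin against NC was not called by limma on log2(FPKM + 0.1) without a filter (0.97, adjusted p = 0.0738). SNAI1 in Activin against NC was called with only the 6 libraries compared (adjusted p = 0.0492) and by limma on log2(FPKM + 0.1) and log2(FPKM + 1) (adjusted p = 0.0455 and 0.0463). CDH1 in Activin+HGF against NC was called with a mean CPM of at least 1, the replicate block, only the 6 libraries compared and DESeq2. VIM in Activin against NC was called by DESeq2 (adjusted p = 0.0351), as was SNAI1 in Activin+HGF against Activin (adjusted p = 0.0255). With only the 6 libraries compared, ESRP1 in Activin+HGF against Activin missed the threshold (-0.70, adjusted p = 0.0796). Over all genes, 2698 were called in this comparison, 714 with only the 6 libraries compared and 4540 by DESeq2.

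Directions turned only in values that were not called. SNAI2 in Activin+HGF against Activin was -0.16 with library totals, -0.16 on log2(FPKM + 0.1) with or without a filter and -0.10 on log2(FPKM + 1), and -0.09 to 0.28 without 1 library. Without 1 library, CDH1 in that comparison ran from -0.40 to 0.02, ZEB1 from -0.52 to 0.32 and CDH2 from -2.14 to 6.03. In Activin against NC, ZEB1 ran from -0.67 to 0.14 and CDH2 from -6.49 to 0.64, and in Activin+HGF against NC CDH2 ran from -2.36 to 0.34. The cause was not tested.

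Same-numbered libraries did not deviate together over all tested genes (correlations -0.0606 to 0.0882 over 9 pairs). Such a correlation can miss a shared culture or batch, so whether the numbers pair the samples stays unknown. With the replicate block, 3, 2 and 7 members were called in the 3 comparisons, against 3, 2 and 6 without it, and in Activin+HGF against Activin CDH2 was at 1.18 and ZEB1 at 0.04.

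The precision is limited by 3 libraries a group, and by low counts in CDH2 and ZEB2.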
